A study of Mus musculus with 33 samples.

Results

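The classical complement genes described here are 9 genes among 41509 named genes of the table: *C1qa*, *C1qb* and *C1qc*, *C4b*, *C2*, *C3*, the inhibitor gene *Serping1*, and the receptor genes *C3ar1* and *C5ar1*. They were taken by name, and 9 of the 9 passed the filter on low values in both regions. The list was selected on its pathway and with measured values in view: it was known that *C4b* in both regions and *C1qa* in the POA had passed the test at 4 months against intact mice. For the 9 genes, that comparison is therefore a description: the calls known at the choice are stated, and nothing is read from them. The libraries are bulk RNA-seq of dissected posterior hypothalamus (PH) and preoptic area (POA) from adult WT C57BL/6 female mice. Ovaries were removed on both sides (OVX) at 3 to 4 months of age, and tissue was collected 14 days or 4 months later. Control mice kept their ovaries and were taken in diestrus. Their libraries are titled sham, another label calls them intact, and intact is used here. The PH has 4 intact, 6 14-day and 6 4-month libraries, and the POA has 5, 6 and 6. The methods describe no intact group collected 4 months later, so time after OVX and age at collection cannot be told apart at 4 months. The labels do not say whether the libraries of a group come from separate mice, and if they do not, *P* values measure a spread that is partly technical.

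Complement is a cascade of plasma and tissue proteins that tags surfaces for removal. In the classical pathway, C1q, built from the chains of *C1qa*, *C1qb* and *C1qc*, binds a target and turns on the proteases C1r and C1s, which cleave C4 and C2 into an enzyme that cleaves C3. The C1 inhibitor encoded by *Serping1* blocks C1r and C1s, and the fragments C3a and C5a act through the receptors C3ar1 and C5ar1. In the brain, microglia are the main source of C1q, C4 is made largely by astrocytes and oligodendrocytes, and complement takes part in the removal of synapses.

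The deposited values are a normalized signal on a linear scale, not counts, and genes without measurable expression lie near 22.1 rather than at 0. Neither sequencing depth nor counting error can be read from them. Whether they are scaled to gene length is not stated, so levels of different genes were not ranked. A ratio between genes, such as that of C1q to microglial markers below, serves only to compare groups. Levels were also not compared between the PH and the POA, only changes within each. The sum of all values lay between 44.5 and 54.5 mega units in 32 of the 33 libraries and at 72.9 in 1, the PH library of 14-day replicate 5. The same library had a first surrogate variable (SV1, the main hidden factor fitted as a covariate) of 0.785. In the other PH libraries SV1 lay between -0.311, in 4-month replicate 6, and 0.195. The 14-day replicate 5 is included below, and the 14-day differences of the PH are also given without it. Every group was spread over 2 labelled batches. Within a batch a group holds 2 or 3 libraries. The share of all genes without overlap was not counted within batches, so a lack of overlap there is only a description. All 12 microglial, 8 astrocyte, 8 oligodendrocyte and 8 neuronal markers were at 2 times the floor or more in every library, whereas 3 of 6 neutrophil markers reached that level in no library. Differences were fitted on log2 values by limma with the 3 groups of a region and SV1. The threshold for a call was an adjusted *P* (Benjamini-Hochberg) of 0.05, over 21953 genes for the PH or 21327 for the POA.

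The upstream sequences of *C4b* and of the 3 C1q genes are shown because *C4b* had the largest differences, and because the C1q genes lie side by side and followed each other across libraries. On GRCm39, the 3 C1q genes span chr4:136606009-136626161 on the minus strand, with *C1qb* from 136606009 to 136613511, *C1qc* from 136616466 to 136620376 and *C1qa* from 136623223 to 136626161. *C4b* lies at chr17:34947354-34962912, also on the minus strand. Each sequence holds the 250 bases before the start of the canonical transcript in GENCODE M39, 5′ to 3′ on the strand of the gene, and overlaps no annotated exon. The windows are chr17:34962913-34963162 for *C4b*, chr4:136626162-136626411 for *C1qa*, chr4:136613512-136613761 for *C1qb* and chr4:136620377-136620626 for *C1qc*. Capitals mark matches to 7 short motifs.
C4b: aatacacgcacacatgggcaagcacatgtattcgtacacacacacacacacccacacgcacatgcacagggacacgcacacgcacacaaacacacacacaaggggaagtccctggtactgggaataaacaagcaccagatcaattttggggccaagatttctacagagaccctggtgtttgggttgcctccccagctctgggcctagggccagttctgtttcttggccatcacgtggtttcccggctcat
C1qa: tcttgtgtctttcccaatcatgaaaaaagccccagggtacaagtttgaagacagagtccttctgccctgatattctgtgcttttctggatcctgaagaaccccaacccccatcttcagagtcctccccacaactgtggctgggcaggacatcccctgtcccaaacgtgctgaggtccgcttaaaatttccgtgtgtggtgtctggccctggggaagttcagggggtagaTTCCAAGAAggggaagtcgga
C1qb: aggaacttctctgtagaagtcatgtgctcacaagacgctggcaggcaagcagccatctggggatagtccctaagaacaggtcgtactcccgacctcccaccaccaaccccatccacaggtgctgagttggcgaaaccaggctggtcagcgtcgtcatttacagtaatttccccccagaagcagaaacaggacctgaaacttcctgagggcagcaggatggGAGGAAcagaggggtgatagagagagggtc
C1qc: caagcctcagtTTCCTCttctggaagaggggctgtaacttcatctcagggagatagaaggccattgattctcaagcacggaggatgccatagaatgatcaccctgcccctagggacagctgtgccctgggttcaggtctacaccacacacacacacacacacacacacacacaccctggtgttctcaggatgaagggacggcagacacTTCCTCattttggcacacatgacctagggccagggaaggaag

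The motifs were searched on both strands: the PU.1 core GAGGAA, the STAT motif GAS TTCNNNGAA, the C/EBP motif TTGCNNAA, TATAAA, and the NF-κB, IRF and estrogen response element motifs. *C1qb* held 1 match to the PU.1 core and *C1qc* held 2, a motif found in 22.9% of 21757 windows of the same length before protein-coding genes. *C1qa* held 1 GAS match, at position -21 from the transcript start, against 7.7% of all windows. The *C4b* window held no match to any of the 7. Such a match is a string of letters and not a shown binding site.

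*C4b*, which encodes complement C4, was at 1193, 1264, 1598 and 1233 in the 4 intact PH libraries. At 14 days it was lowest at 732, had a median of 1574 and reached 1765. At 4 months it ran from 2497 through a median of 3058 to 3742, so that 6 of 6 libraries lay above every intact and every 14-day library. The group means were 1322 ± 186 (SD, n = 4), 1442 ± 371 (n = 6) and 3113 ± 500 (n = 6). The lowest 14-day value belongs to replicate 5, the library that stands apart. At 4 months *C4b* exceeded intact mice by 1.19 on the log2 scale (SE 0.12), or 2.28-fold. Within batch 1 this difference was 1.26 and within batch 2 it was 1.20, with no overlap in either.

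Against 14 days, *C4b* in the PH was 0.95 higher at 4 months (SE 0.12, 1.93-fold, limma, adjusted *P* = 0.00370), the smallest *P* of all 21953 genes, of which 2 (0.00911%) were called. This comparison shares its 4-month libraries with the one known when the list was drawn up, so it is no independent evidence. The call was kept whichever single library was left out (highest adjusted *P* = 0.0383, limma). It was lost with batch in place of SV1 (difference 1.15, adjusted *P* = 0.0646, limma), without a covariate (1.15, adjusted *P* = 0.0844), without the filter (0.94, adjusted *P* = 0.0615) and in batch 2 alone (1.34, adjusted *P* = 0.672). With batch as the covariate and replicate 5 at 14 days left out, it was 0.95 with an adjusted *P* of 3.94e-04 (limma).

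At 14 days against intact mice, *C4b* in the PH differed by 0.24 (SE 0.13, unadjusted *P* = 0.0741, adjusted *P* = 1.00, limma), and 3 of 6 libraries lay above every intact one. The value was 0.30 within batch 1, without overlap, and -0.14 within batch 2, which overlapped and holds replicate 5. With batch in place of SV1 it was 0.0815, and 0.28 with that replicate also left out. The step from intact to 14 days in the PH was not called, and its sign differed between the batches.

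In the POA, *C4b* was at 1156, 1249, 2271, 1357 and 1500 in the 5 intact libraries. The 14-day libraries ran from 1255 through a median of 1855 to 3054, and the 4-month libraries from 1752 through 2961 to 3520. Here the groups overlapped, because intact replicate 3 lay above 2 of the 4-month libraries. Group means were 1507 ± 446 (SD, n = 5), 1994 ± 682 (n = 6) and 2727 ± 715 (n = 6). The difference at 4 months was 0.98 (SE 0.13, 1.97-fold), and 0.83 and 0.97 within batches 1 and 2, in both of which the groups did not overlap.

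At 14 days *C4b* in the POA was 0.49 above intact mice (SE 0.13, 1.404-fold), which ranked 37 of 21327 genes by *P* but was not called (unadjusted *P* = 0.00121, adjusted *P* = 0.674, limma). The intact libraries are those of the comparison known when the list was drawn up. Within batch 1 the 14-day difference was 0.26 without overlap, and within batch 2 it was 0.59 with overlap. The 4-month libraries exceeded the 14-day ones by another 0.49 (SE 0.12, unadjusted *P* = 7.62e-04, adjusted *P* = 0.559, limma). Batch 2 was higher than batch 1 by 0.64 (SE 0.13) for this gene in the POA, and by 0.00952 (SE 0.18) in the PH. The POA means had the order intact, 14 days, 4 months, and no neighbouring step was called.

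**Figure D1:**
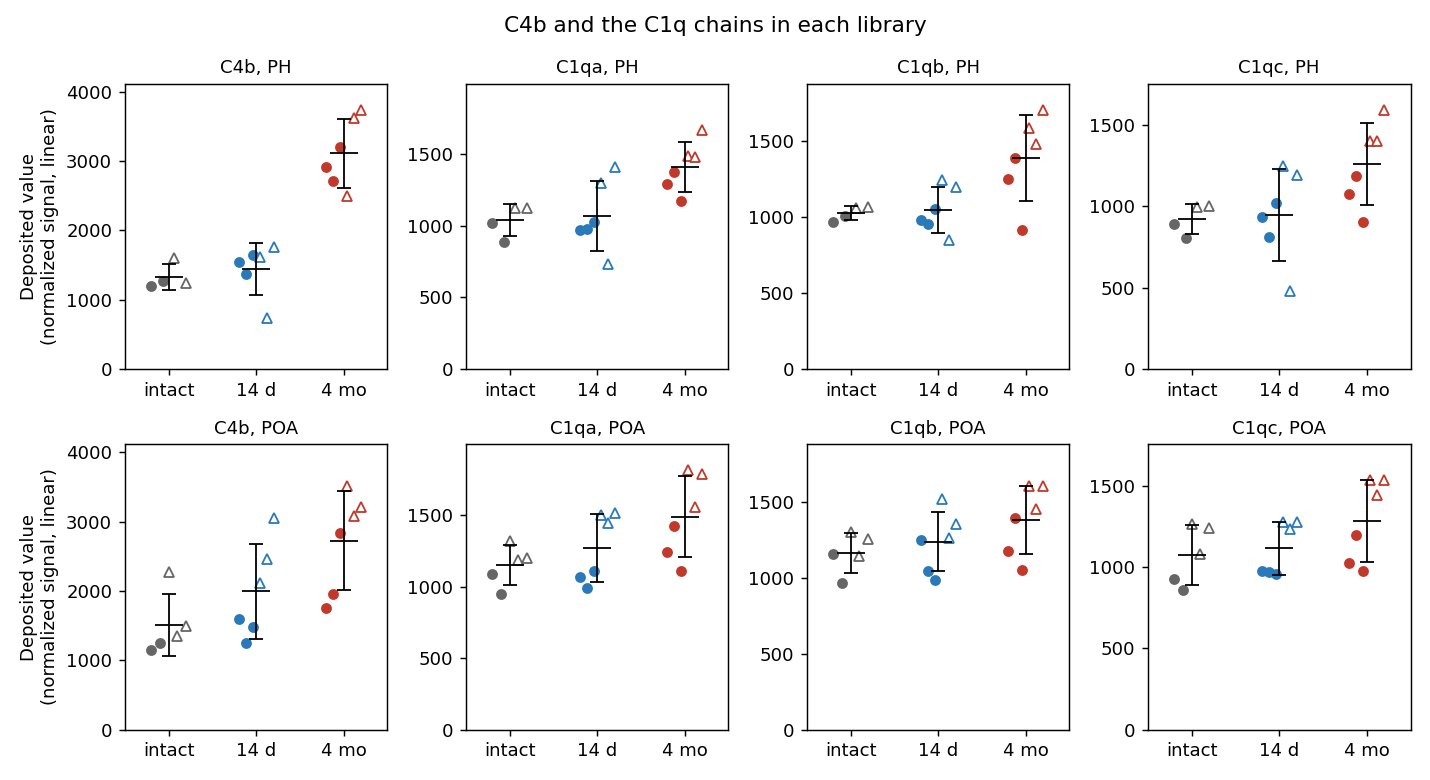
Deposited value (normalized signal, linear scale) of *C4b*, *C1qa*, *C1qb* and *C1qc* in each PH library (top) and POA library (bottom) by group, with filled circles for batch 1, open triangles for batch 2, and bars for the mean and SD. The 6 PH libraries at 4 months lie at 2497 or more for *C4b*, whereas the intact and 14-day PH libraries lie at 1765 or less.

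*C4a* is a neighbouring copy of *C4b*, at chr17:35028069-35042440 on the minus strand. Of the 31-base words of the canonical *C4b* transcript, 48.4% also occur in that of *C4a*, so the pseudoalignment has to divide part of the reads between them, and the values of both are uncertain to that extent. *C4a* lay far nearer the floor, at 70.4 to 138 in intact PH libraries and 61.2 to 149 at 4 months, groups that overlap throughout. Its difference at 4 months was -0.0306 (SE 0.29) in the PH and 0.46 (SE 0.17, unadjusted *P* = 0.0125, adjusted *P* = 0.411, limma) in the POA.

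The 3 C1q genes, which encode the A, B and C chains of the recognition molecule, differed in the same direction in both regions. *C1qa* in the PH was at 1024, 888, 1128 and 1126 in intact mice, and ran from 732 through a median of 1003 to 1409 at 14 days and from 1177 through 1426 to 1674 at 4 months. All 6 libraries at 4 months lay above every intact library, whereas the 14-day libraries spanned both groups. The difference at 4 months was 0.40 (SE 0.08, 1.32-fold) for *C1qa*, 0.38 (SE 0.10) for *C1qb* and 0.37 (SE 0.09) for *C1qc*. For *C1qb* and *C1qc*, 5 of 6 libraries lay above every intact one, and the exception in each was replicate 3.

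In the POA, *C1qa* was at 1089, 947, 1319, 1185 and 1203 in intact mice. It ran from 991 through 1278 to 1512 at 14 days and from 1111 through 1493 to 1813 at 4 months, with 4 of 6 libraries at 4 months above every intact one. The differences at 4 months were 0.43 (SE 0.08, 1.35-fold) for *C1qa*, 0.29 (SE 0.09) for *C1qb* and 0.33 (SE 0.07) for *C1qc*. Batch 2 was higher than batch 1 by 0.42 (SE 0.06) for *C1qa* in the POA and by 0.22 (SE 0.11) in the PH, and the pooled ranges span both batches. Within batches, *C1qa* differed by 0.42 and 0.45 in the PH and by 0.30 and 0.48 in the POA, with no overlap in any of the 4. *C1qc* did not overlap within any batch either, at 0.31, 0.56, 0.25 and 0.33, each from 3 libraries against 2 or 3. *C1qb* overlapped within batch 1 of both regions, at 0.24 (PH) and 0.19 (POA), and not within batch 2, at 0.58 and 0.33.

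At 14 days the C1q genes lay 0.13 to 0.19 above intact mice in the PH and 0.13 to 0.20 above in the POA. None was called by limma, and *C1qa* in the POA had the smallest unadjusted *P*, 0.0210 (adjusted *P* = 0.799, limma). In the POA, *C1qa* did not overlap intact within batch 2 (0.27), nor did *C1qc* within batch 1 (0.12). The other within-batch comparisons of the C1q genes at 14 days overlapped. In batch 2 of the PH, which holds 14-day replicate 5, *C1qa* differed from intact by -0.0308 and *C1qc* by -0.16. With that replicate left out and batch as covariate, they were 0.15 and 0.20 above, and *C1qb* was 0.10 above. From 14 days to 4 months *C1qa* differed by a further 0.26 (SE 0.08, unadjusted *P* = 0.00477, limma) in the PH and 0.24 (SE 0.07, unadjusted *P* = 0.00506, limma) in the POA, and neither was called (adjusted *P* = 1.00 and 0.743, limma).

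Across libraries the 3 chains followed each other closely. After the group means were taken out, Pearson's *r* between *C1qa* and *C1qc* was 0.94 over the 16 PH libraries and 0.95 over the 17 POA libraries, and between *C1qa* and *C1qb* it was 0.81 and 0.90. These libraries share batches, and no pair of the 3 canonical transcripts shares a 31-base word. The PH values include 14-day replicate 5, the lowest of its group for *C1qa* (732) and *C1qc* (477). They were not computed without it.

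C1q is a microglial product, and in bulk tissue more cells of a type and more RNA per cell cannot be told apart. The 12 microglial markers summed to 16160 to 18266 in intact PH libraries, 17323 to 19154 at 14 days and 18037 to 20552 at 4 months. In the POA the sums were 16256.5 to 18465, 18069.5 to 19670 and 18046 to 20691.5. At 4 months 11 of 12 markers lay above intact mice in each region, with a median log2 difference of 0.20 in the PH and 0.14 in the POA, beside a median over all genes of -0.00932 and -0.0105. None of the 12 was called by limma in either region, beside 0.0319% (PH) and 0.0938% (POA) of all genes. With an unadjusted *P* under 0.05, 6 PH and 7 POA markers were higher, beside 2.95% and 4.1% of all genes. At the same threshold 1 marker was lower in each region, beside 3.12% and 4.41%. The lysosomal protease gene *Ctss* had the smallest *P*, with 0.46 (SE 0.09, adjusted *P* = 0.113, limma) in the PH and 0.34 (SE 0.07, adjusted *P* = 0.0933, limma) in the POA, and *Fcrls* was the 1 marker below intact, at -0.34 and -0.37.

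The C1q genes are not among these 12 markers. As a ratio to that sum, the summed C1q genes equalled 17.8% ± 2.0 (SD, n = 4) in intact PH libraries, 16.8% ± 3.3 (n = 6) at 14 days and 20.7% ± 3.2 (n = 6) at 4 months. In the POA these values were 19.5% ± 2.7 (n = 5), 19.3% ± 3.2 (n = 6) and 21.3% ± 3.3 (n = 6). Pooled over batches the groups overlapped in both regions. Within each batch every 4-month library lay above every intact one: the ratio was 16.6% to 19.9% against 15.8% to 16.3% in batch 1 of the PH, and 22.003% to 24.2% against 19.3% to 19.8% in batch 2. For the POA it was 17.204% to 20.9% against 16.1% to 17.185% in batch 1, and 23.8% to 24.6% against 21.0% to 22.3% in batch 2. The part of microglial abundance in the C1q differences was not tested.

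**Figure D2:**
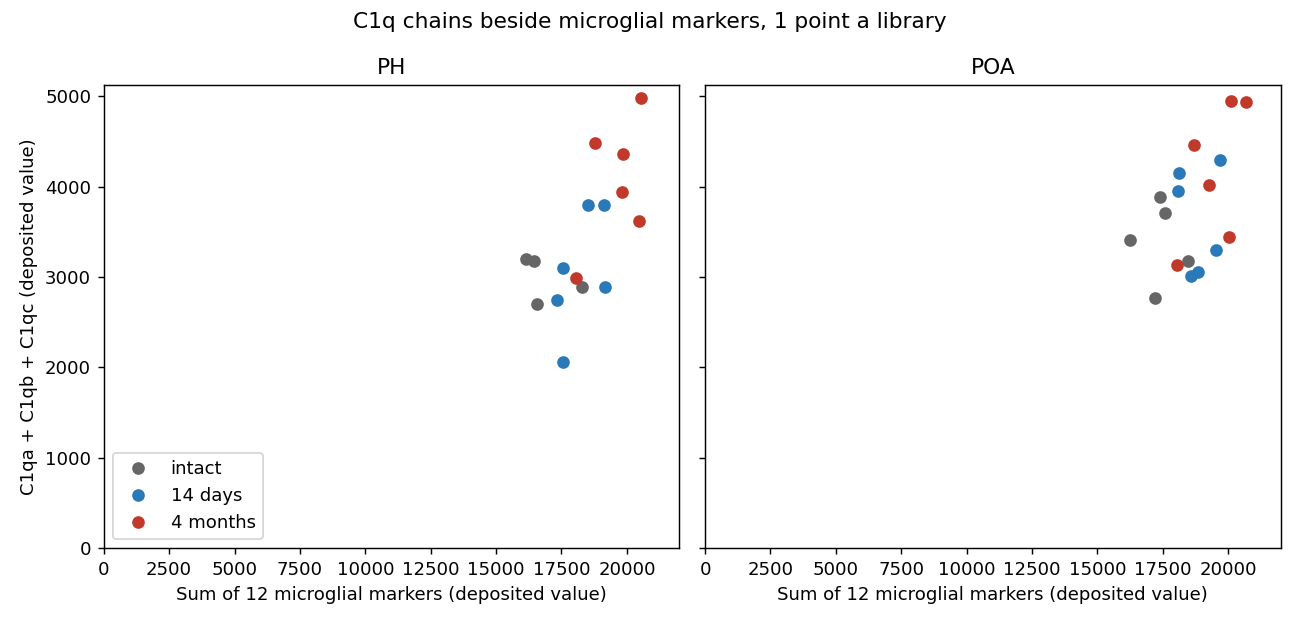
Summed deposited value of *C1qa*, *C1qb* and *C1qc* against the summed value of 12 microglial markers, 1 point per library, in the PH (left) and POA (right), colored by group. Both sums are highest in 4-month libraries, where the marker sum reaches 20552 (PH) and 20691.5 (POA), and the groups overlap.

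*C2*, whose product joins C4 in the enzyme that cleaves C3, had the smallest difference of the 9 genes at 4 months in the PH. There it was at 167 to 191 in intact mice, 112 to 194 at 14 days and 146 to 233 at 4 months. The differences were -0.19 (SE 0.16) at 14 days and 0.0415 (SE 0.16) at 4 months, and in the POA they were 0.0483 (SE 0.14) and 0.0556 (SE 0.14). The groups overlap in every comparison, and no adjusted *P* was below 0.975 at 14 days (limma).

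*C3*, the protein on which all complement pathways meet, varied widely between libraries, and had the highest coefficient of variation of the 9 genes in 3 of the 6 groups. Intact PH libraries alone were at 539, 157, 191 and 295, and the 14-day group reached 736, in replicate 5. Means in the PH were 295 ± 173 (SD, n = 4), 383 ± 197 (n = 6) and 348 ± 110 (n = 6), and in the POA 275 ± 78 (n = 5), 363 ± 140 (n = 6) and 385 ± 122 (n = 6). The fitted differences at 4 months, 0.41 (SE 0.28) in the PH and 0.49 (SE 0.27) in the POA, were near those of *C1qa*, with errors over 3 times as large. At 14 days they were 0.16 (SE 0.29) and 0.39 (SE 0.27), with unadjusted *P* of 0.603 and 0.176 (limma). From 14 days to 4 months in the PH the fitted difference was 0.26 (SE 0.27), whereas the group mean was lower at 4 months. With batch in place of SV1 or without a covariate, that difference was -0.0618.

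*Serping1*, the gene of the C1 inhibitor, was at 348, 228, 255 and 318 in intact PH libraries, from 269 to 386 at 14 days and from 314 to 439 at 4 months. Its difference was 0.29 (SE 0.14, unadjusted *P* = 0.0572, adjusted *P* = 1.00, limma) at 14 days and 0.39 (SE 0.14) at 4 months, when 4 of 6 libraries lay above every intact one. In the POA it was 0.30 (SE 0.22) and 0.28 (SE 0.22), and the highest library was 14-day replicate 6, at 621. The POA batches had opposite signs at 4 months, with 0.66 and no overlap in batch 1 and -0.14 in batch 2. The summed markers of meningeal fibroblasts, which also express it, ran from 4817 to 6391 in intact POA libraries and from 4945 to 7165 at 14 days, and their part was not tested.

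The receptor gene *C3ar1* was at 137, 126, 121 and 118 in intact PH libraries, 115 to 198 at 14 days and 125 to 184 at 4 months. It differed by 0.19 (SE 0.13, unadjusted *P* = 0.172, limma) at 14 days and by 0.33 (SE 0.13) at 4 months, with 5 of 6 libraries above every intact one. In the POA the differences were 0.0269 (SE 0.11) and 0.0119 (SE 0.11), and the 3 groups overlapped throughout. *C5ar1*, the C5a receptor gene, lay close to the floor, at 37.3 to 98.1 over all PH libraries and 38.1 to 72.3 over all POA libraries. Near the floor this scale understates differences. Those of *C5ar1* at 14 days and 4 months were 0.24 (SE 0.22) and 0.23 (SE 0.21) in the PH and 0.0302 (SE 0.13) and 0.0447 (SE 0.13) in the POA. With 14-day replicate 5 left out and batch as covariate, the PH differences at 14 days were -0.19 for *C2*, 0.15 for *C3*, 0.31 for *Serping1*, 0.18 for *C3ar1* and 0.19 for *C5ar1*.

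**Figure D3:**
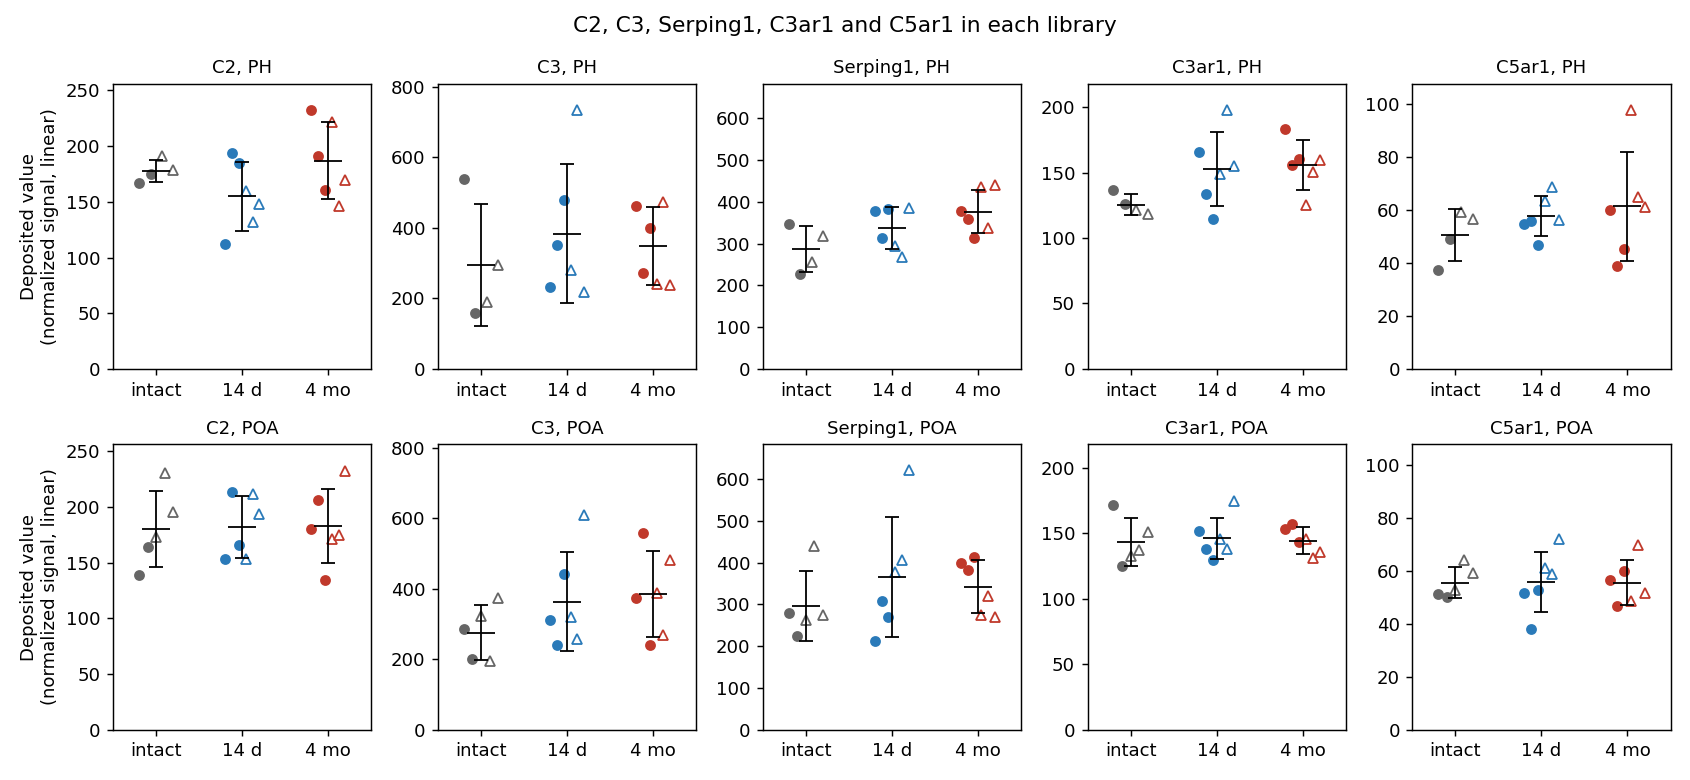
Deposited value (normalized signal, linear scale) of *C2*, *C3*, *Serping1*, *C3ar1* and *C5ar1* in each PH library (top) and POA library (bottom), with filled circles for batch 1, open triangles for batch 2, and bars for the mean and SD. The groups overlap for each gene in both regions, and *C3* runs from 157 to 736 in the PH.

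Counted together, 8 of 9 PH values lay above intact mice at 14 days, beside 49.4% of all genes, with *C2* below, whereas 9 of 9 POA values did, beside 47.9%. None was called by limma at 14 days in either region, where 0% (PH) and 0.00469% (POA) of all genes were called. With an unadjusted *P* under 0.05, 0 of 9 were higher in the PH, beside 1.57% of all genes, and 2 of 9 in the POA, *C4b* and *C1qa*, beside 2.84%. The median log2 difference of the 9 at 14 days was 0.19 for the PH and 0.13 for the POA. At 4 months 9 of 9 fitted differences lay above 0 in both regions, beside 47.2% (PH) and 46.5% (POA) of all genes, and the medians were 0.38 and 0.29. In batch 2 alone *C2* lay below intact in both regions, as did *Serping1*, *C3ar1* and *C5ar1* in the POA. Without a covariate *C5ar1* in the POA was at -0.00356. The calls known when the list was drawn up were those of *C4b* in the PH, 1 of 9 beside 0.0319% of all genes, and of *C4b* and *C1qa* in the POA, 2 of 9 beside 0.0938% (limma). *C4b* and *C1qa* were also the 2 of 9 whose 4-month libraries all lay above the intact ones in the PH, beside 0.551% of all genes, and in the POA there were 0 of 9, beside 0.413%. Since the choice of the list fixed these calls, nothing is read from the counts or shares at 4 months against intact mice. The comparisons at 14 days share their intact libraries with that one, and those of 4 months with 14 days share its 4-month libraries. Their counts and shares are therefore no independent evidence either. From 14 days to 4 months, 1 of 9 was called for the PH, beside 0.00911%, and 0 of 9 for the POA, beside 0.0281% of all genes (limma). At an unadjusted *P* under 0.05, *C4b* and the 3 C1q genes were higher in the PH, beside 2.07% of all genes, whereas in the POA they were *C4b*, *C1qa* and *C1qc*, beside 2.46%. In this comparison *C4b* was the 1 of 9 without overlap in the PH, beside 0.128% of all genes, and the POA had 0 of 9, beside 0.0703%.

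The counts at 4 months depended on the fit. The call of *C1qa* was kept in 3 of 17 fits with 1 library left out and that of *C4b* in 17 of 17. Without a covariate neither was called in the POA. In the PH, *C4b* was not called at 4 months against intact with batch in place of SV1, where the difference was 1.23, and it was called with 14-day replicate 5 also left out.

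**Figure D4:**
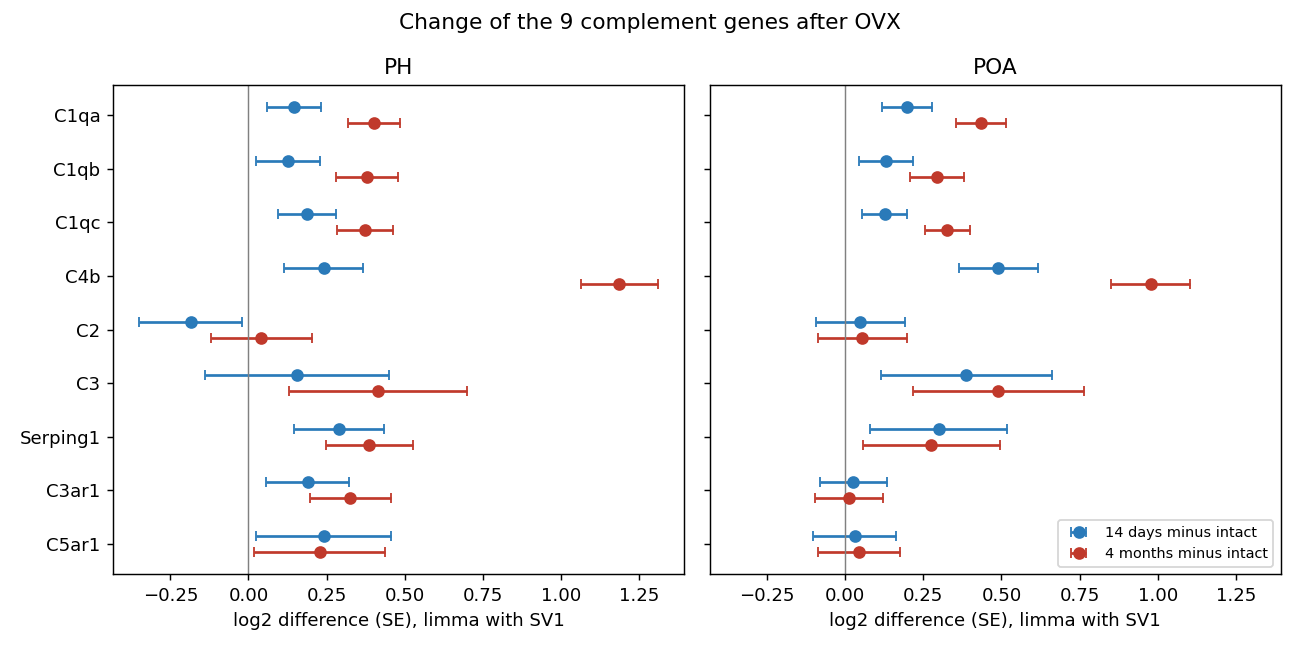
Log2 difference from intact mice with its SE (limma with SV1) for the 9 genes at 14 days (blue) and 4 months (red) in the PH (left) and POA (right). *C4b* at 4 months stands apart at 1.19 and 0.98, the C1q chains lie between 0.29 and 0.43, and *C2* lies near 0.

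The response to OVX was compared between the regions in 1 fit of all 33 libraries over 22098 genes, as the PH difference minus the POA difference. The labels do not say whether PH and POA libraries of the same number come from the same mouse, and the fit treats all libraries as independent. A block of group and number, with an estimated correlation of 0.107, left the count of members called at 0. No member was called at either time by limma, beside 0.00453% of all genes at 14 days and 0.00905% at 4 months, and 0 of 9 had an unadjusted *P* under 0.05, beside 2.99% and 3.6%. For *C4b* the difference between regions was -0.19 (95% interval -0.62 to 0.24) at 14 days and 0.23 (-0.21 to 0.66) at 4 months. That of *C1qa* at 4 months was -0.0339 (-0.26 to 0.19). *C3ar1* at 4 months came nearest, at 0.33 (-0.0046 to 0.66, unadjusted *P* = 0.0531, adjusted *P* = 1.00, limma). These intervals leave room for regional differences as large as 0.66 in *C4b*.

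The rest of the complement system was followed with a list of 51 other genes, of which 49 were in the table. The filter left 38 of these for the PH and 36 for the POA. None was called by limma in any of the 6 comparisons. Of all genes, 0% to 0.0938% were called in these comparisons, so the lack of calls is no result about the list. At 4 months, 4 of 38 were higher and 0 lower at an unadjusted *P* under 0.05 for the PH, whereas for the POA 4 of 36 were higher and 2 lower. Over all genes, 2.95% were higher and 3.12% lower in the PH, against 4.1% and 4.41% in the POA. The median difference of the list at 4 months was 0.0553 in the PH and 0.0545 in the POA.

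By role, the genes of recognition and the early proteases had a median of 0.0230 in the PH (8 tested) and -0.0321 in the POA (6 tested) at 4 months. Among them *Masp1*, a protease of the lectin pathway, was at -0.17 (SE 0.10) and -0.23 (SE 0.08, adjusted *P* = 0.367, limma), and *Colec11*, a collectin, at 0.34 (SE 0.17) and -0.12 (SE 0.14). Of the alternative pathway, *Cfp*, the gene of properdin, was at -0.18 (SE 0.14) and 0.13 (SE 0.15). The 4 terminal pathway genes had medians of -0.0531 and -0.16, with *C8g*, the C8 gamma chain, at 0.0184 (SE 0.14) and -0.29 (SE 0.13), and *Hc*, the C5 gene, at -0.31 (SE 0.27) and -0.25 (SE 0.24). The 17 regulators had medians of 0.0856 and 0.0788. *Vtn*, the gene of vitronectin, which blocks the terminal complex, was at 0.30 (SE 0.09, unadjusted *P* = 0.00419, limma) and 0.29 (SE 0.15), and *Sez6l2* at 0.21 (SE 0.09) and -0.0837 (SE 0.07).

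The 6 receptors had the highest medians of the role groups, 0.28 for the PH and 0.16 for the POA. *Itgam* and *Itgb2*, which encode the 2 chains of complement receptor CR3 on microglia, were at 0.31 (SE 0.09, unadjusted *P* = 0.00232, limma) and 0.26 (SE 0.14) in the PH and at 0.22 (SE 0.07, unadjusted *P* = 0.00557, limma) and 0.28 (SE 0.09, unadjusted *P* = 0.00677, limma) in the POA. For *Itgam*, 5 of 6 libraries at 4 months lay above every intact library in each region. At 14 days it was at 0.27 (SE 0.09, unadjusted *P* = 0.00742, limma) in the PH and 0.13 (SE 0.07) in the POA.

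**Figure D5:**
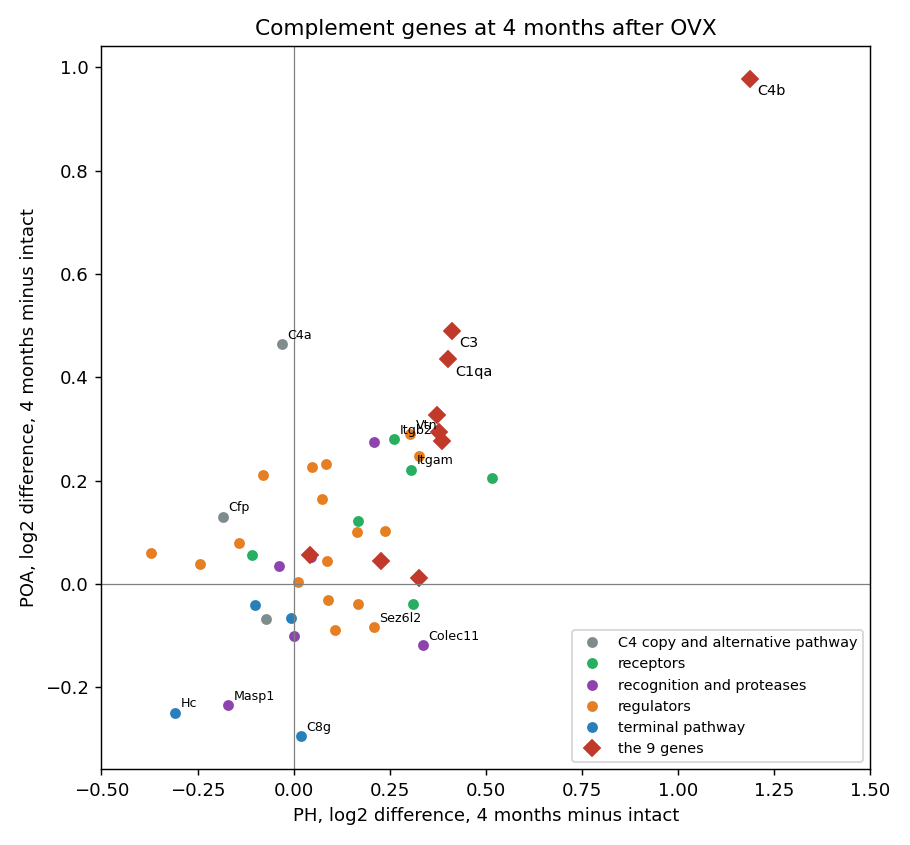
Log2 difference between 4 months and intact in the PH (horizontal) and POA (vertical) for the 9 genes (red diamonds) and the other complement genes tested in both regions (circles, colored by role). *C4b* lies alone at 1.19 and 0.98, whereas the other complement genes lie between -0.37 and 0.51 in the PH and between -0.29 and 0.46 in the POA.

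Genes of like pattern were ranked by the lower of their Pearson correlations with a member over the 16 PH and the 17 POA libraries, which share groups and batches. Group differences were left in, and calls of *C4b* and *C1qa* at 4 months were known, so their ranks beside each other are no independent evidence. With group means taken out, *r* with *C4b* was 0.71 (PH) and 0.77 (POA) for *C1qa*. It was 0.78 and 0.77 for *C1qc*, and 0.41 and 0.63 for *C1qb*. The PH values include 14-day replicate 5, the lowest of its group for *C4b* and *C1qa*. For *C4b* the first 5 were *C1qa* (*r* = 0.84 in the PH and 0.84 in the POA), *C1qc* (0.78 and 0.79), *Hapln2* (0.76 and 0.79), *Pld4* (0.74 and 0.76) and *Adgre1* (0.73 and 0.73). *Hapln2* encodes a link protein of the matrix at nodes of myelinated axons, and *Adgre1* the macrophage marker F4/80. For *C1qa* the first 5 were *C1qc* (0.95 and 0.95), *C1qb* (0.90 and 0.92), *Tspo* (0.88 and 0.86), *Tmem119* (0.86 and 0.85) and *Ctsz* (0.84 and 0.89), and *C4b* was the next. *Tmem119* is a microglial marker, *Tspo* encodes a mitochondrial membrane protein, and *Ctsz* a lysosomal protease. *C1qb* ranked 8 beside *C4b* (0.73 and 0.71). The 5 members other than the C1q genes ranked far lower, from 2751 for *Serping1* to 10282 for *C3*, whose correlation was -0.14 in the PH and 0.40 in the POA.

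Markers of other cell types were read beside these results. At 4 months 0 of 8 astrocyte, 0 of 8 oligodendrocyte, 0 of 8 neuronal, 0 of 6 endothelial, 0 of 6 border macrophage and 0 of 6 fibroblast markers were called by limma in either region. Of all genes, 0.0319% (PH) and 0.0938% (POA) were called. The medians were 0.0252 and -0.00408 for astrocytes, -0.13 and -0.14 for oligodendrocytes and -0.0541 and -0.0501 for neurons, in the PH and the POA. For meningeal fibroblasts they were -0.0532 and 0.16, and for the 2 and 1 neutrophil markers tested 0.35 and -0.37. Those of endothelial cells were 0.22 and 0.14 and those of border macrophages -0.15 and 0.0158. Red cell genes had the largest median, 1.364 for the PH and 0.80 for the POA. Their sum in the PH was 9909 to 12938 in intact mice and 14293 to 41047 at 4 months. In the PH, 5 of 6 of these genes lay above intact without overlap, beside 0.551% of all genes. There 1 of 6 was called, beside 0.0319% (limma). In the POA the sum was 10647 to 19865 in intact mice and 12922 to 26056 at 4 months. Choroid plexus genes varied within every group, from 2144 to 61062.5 in intact PH libraries alone. The part of these cell types in the complement differences was not tested.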

How the data were processed

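RNA of the PH and POA was extracted from flash-frozen tissue, made into stranded mRNA libraries and sequenced as paired ends. The authors pseudoaligned the reads with kallisto (mm39), summarized them with tximport and analyzed them with DESeq2. The deposited table holds a normalized signal on a linear scale, with a floor of 22.1. The step that made it is not given in the sources used here. The values are not counts, so depth is unknown.

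Libraries were grouped by their titles. For 1 POA library another label gives only 14, and the title gives its time. The 1259 entries without a name and 56 repeated symbols were left out. Log2 values without a pseudocount were fitted with limma 3.58.1 (R 4.3.3, trend and robust variance) with 3 group terms per region plus SV1, which was estimated by iterative reweighting in 5 rounds. Genes at 2 times the floor in 4 PH or 5 POA libraries were tested. The genes, the lists and the tests were chosen with earlier results of these data known. Text was limited to the 9 genes, *C4a*, the 2 other complement genes per role with the smallest *P* at 4 months, and the 5 genes most like *C4b* and *C1qa*. Alternatives were other covariates, a replicate block, 2 groups only, no filter, a pseudocount of 16, centring on the median, single batches and each library left out. Gene positions are from GENCODE M39 (GRCm39), which is the build of the files. Figures were drawn with Python 3.11.15 and matplotlib 3.10.9.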

Additional observations from a re-analysis of the deposited data

Results flagged for a closer look

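Of 54 groups of member values, 1 held a library far from the others (Dixon's test at the 95% level). *C4b* in PH 14-day replicate 5 was at 732, whereas the nearest of the other 5 libraries was at 1370. This gap made 0.71 of the group's whole log2 range. Chance marks about 1 group in 20. The same library had the highest sum of all values, 72.9 mega units. No member's response to OVX differed between the regions past the threshold, with the lowest adjusted *P* at 0.9998 over both times (limma interaction).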

How the results depend on the processing

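The count of 9 genes called and the difference of each gene were recomputed with other covariates, a replicate block, 2 groups only, no filter, a pseudocount of 16, median centring, single batches and each library left out. No other complement gene was called under any of them (limma), and the share of all genes called under them was not counted. The comparison between regions was refitted under fewer settings: batch in place of SV1, no covariate, a block of group and number, no filter and median centring. It was also refitted with each library left out, and no member was called in any of these fits (limma). At 4 months against intact in the PH, the count of 1 became 0 with batch in place of SV1 and 0 in batch 2 alone. It became 2 with batch as covariate and 14-day replicate 5 left out, a setting chosen after seeing the data. With single libraries left out it was 1 to 2, and 2 without 4-month replicate 3. At 4 months against 14 days in the PH, the count of 1 became 0 with batch in place of SV1, 0 without a covariate, 0 without the filter and 0 in batch 2 alone. In the POA at 4 months, the count of 2 became 0 without a covariate, 0 with 2 groups only and 0 in each batch alone. It became 1 with SV1 and batch together, 1 with the replicate block, 1 without the filter and 1 with median centring. With single libraries left out it was 1 to 3, and 3 without 14-day replicate 6. The cause of these changes was not tested.

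Under settings other than leaving out 1 library, 38 values of single genes had the opposite sign to the reported one, none of them a called one, and 10 of these were at 4 months against intact. In batch 2 these were *C2* at -0.0664 (PH) and -0.0553 (POA), and in the POA *Serping1* at -0.14, *C3ar1* at -0.0307 and *C5ar1* at -0.0603. The others, also in the POA, were *C5ar1* at -0.00356 without a covariate and -0.00900 with the replicate block, *C2* at -0.0284 with the block, and *C3ar1* at -0.0123 with 2 groups only and -0.00433 with median centring. In the PH at 14 days, *C1qc* was at -0.0209 with batch in place of SV1, at -0.0209 without a covariate and at -0.16 in batch 2, where *C1qa* was at -0.0308 and *C4b* at -0.14. In the PH at 4 months against 14 days, *C3* was at -0.0618 with batch or no covariate and at -0.24 in batch 2, *C3ar1* at -0.20 in batch 2 and *Serping1* at -0.0315 in batch 1. There *C5ar1* was at 0.0374 with batch or no covariate, 0.0447 with SV1 and batch, 0.00453 with the replicate block, 0.0240 with 2 groups, 0.22 in batch 2 and 0.0476 with batch and replicate 5 left out. In the POA at 14 days, *C5ar1* was at -0.0125 without a covariate, -0.0197 with the replicate block and -0.11 in batch 1. *C2* was at -0.0316 with the block and -0.10 in batch 2, and *C3ar1* at -0.0713 in batch 1. In the POA at 4 months against 14 days, *C2* was at -0.00188 with SV1 and batch and -0.0406 in batch 1, *Serping1* at 0.61 and *C3ar1* at 0.12 in batch 1, and *C5ar1* at -0.19 in batch 2.

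With single libraries left out, 14 differences near 0 changed direction. At 4 months against intact, *C2* ran from -0.0349 to 0.11 (PH) and from -0.0224 to 0.13 (POA), and in the POA *C3ar1* ran from -0.0465 to 0.0924 and *C5ar1* from -0.00707 to 0.10. In the POA at 14 days *C2* ran from -0.0289 to 0.12, *C3ar1* from -0.0437 to 0.11 and *C5ar1* from -0.0338 to 0.10. In the POA at 4 months against 14 days, *C2* ran from -0.0569 to 0.0822, *C3* from -0.0352 to 0.27, *C3ar1* from -0.0562 to 0.0436, *C5ar1* from -0.0705 to 0.0702 and *Serping1* from -0.15 to 0.13. In the PH, *C3* at 14 days ran from -0.11 to 0.44 and *C5ar1* at 4 months against 14 days from -0.13 to 0.11.

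The labels do not say that a replicate number pairs libraries. Deviations from the group means correlated above 0.1 in 9 of 12 same-numbered PH pairs of the same batch and in 14 of 14 in the POA, but in 0 of 2 pairs across batches in each. Pairs of unlike number in the same batch did so in 17 of 30 (PH) and 32 of 34 (POA). Of the libraries, 6 of 16 (PH) and 5 of 17 (POA) correlated best with their own number. Between regions, same-numbered PH and POA libraries correlated above 0.1 in 14 of 16 pairs, all of the same batch, and 18 of 33 libraries correlated best with their own number. Of the pairs of a PH and a POA library of unlike number in the same batch, 21 of 30 were also above 0.1. Whether same-numbered PH and POA libraries share a mouse is not in the labels. With the replicate block, the POA count at 4 months was 1 and no other count of calls changed. Depth is unknown, so counting error could not be set beside these values.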
